A study of Sus scrofa with 15 samples.

Results

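Immediate early genes and heat shock genes were examined in backfat, the subcutaneous fat over the back, of 15 castrated male Iberian pigs, a breed that lays down much fat. The members are probe sets with a single platform gene symbol that belongs to the FOS, JUN, EGR, ATF, NR4A, KLF, DUSP, IER, GADD45, CEBP, SOCS, HSP or DNAJ families, or is MYC. This rule took 27 of the 3255 probe sets, for 23 of 1260 named genes. Of these, 14 probe sets for 11 genes formed the early response group and 13 probe sets for 12 genes formed the heat shock group. In the RefSeq gene table of the pig, 162 symbols met the rule, so 139 of them, FOS and JUN among them, were not analysed here. Another 2 probe sets carried several symbols, FOSL2 among them, and were left out.

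One Affymetrix porcine array was hybridised per animal, with RNA from the inner fat layer, and values are log2 signals per probe set. A control group of 7 animals ate a standard diet. A high-oleic group of 8 animals ate a diet rich in oleic acid, a monounsaturated fatty acid. The control feed held less energy and protein per weight, so more of it was given and the rations matched. Feeding ran for 24 weeks from 28 kg live weight until slaughter, and the age of the animals was not given. Live weight at slaughter was 112 to 133 kg in control animals and 104.5 to 116 kg in high-oleic animals. Animals are named by diet and number, and nothing says that animals of equal number belong together.

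Immediate early genes are transcribed within minutes of a stimulus, without new protein synthesis, and many encode transcription factors or brakes on signalling. They respond to growth factors, stress and handling of tissue. Heat shock genes encode chaperones: HSP70 proteins hold unfolded chains, J-domain proteins of the DNAJ families deliver clients to them and trigger their ATPase, HSP90 matures signalling proteins, and small heat shock proteins keep unfolded proteins soluble. Part of each family is present in all cells and part is induced by stress, through heat shock factor.

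Each probe set of the table varied between animals, with at least 3 of 15 arrays 0.585 or more away from its own median on the log2 scale, so less variable members were not analysed here. The median signal of an array was 6.38 to 6.67, and precision is limited by the number of arrays. Of 14 adipocyte markers 3 were measured, FASN, LEP and PNPLA2, with means of 9.96, 11.53 and 8.74, and ADIPOQ and PLIN1 were not analysed here. High-oleic animal 8 stood apart in its spiked bacterial control transcripts, measured by 7 probe sets, at 7.29 against 5.19 to 6.503 in the other 14 animals. Its array also had the lowest array weight in limma, a weight that is lower for arrays that vary more about the diet means. This weight was 0.24, against 0.51 to 1.73 for the other arrays. Array and animal cannot be told apart, with 1 array per animal. Control animal 1 and high-oleic animal 2 had the highest interferon scores, 2.91 and 2.64, where a score is the mean log2 deviation of 14 measured genes of 18 listed. Skeletal muscle scores, from 9 of 20 listed genes, were highest in control animal 2 (3.36), high-oleic animal 7 (2.98) and control animal 5 (2.14). The smooth muscle score, from 8 of 10 listed genes, was highest in control animals 1 and 6, at 1.63 and 1.32. In whole tissue, fewer cells of a type and less RNA per cell cannot be told apart.

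The transcription factors of the early response group differed widely in how much they varied between animals. NR4A3, an orphan nuclear receptor also called NOR-1, varied most, with an SD of 1.57 over the 15 animals against a median SD of 0.55 over all probe sets. On the control diet its lowest, median and highest values were 3.25, 6.08 and 7.97, and in high-oleic animals 3.20, 6.20 and 7.48. In 6 animals, 3 of each diet, NR4A3 was at most 4.55, and in the other 9 it was at least 5.84. This is the widest gap in its ordered values, and any gene has a widest gap. The lower values were dim, near the mean of 4.16 of HSPB8, the dimmest member. The part of dim signal in the spread of NR4A3 was not tested. The related receptor NR4A2 ran from 6.07 through 6.90 to 7.78 in control animals and from 5.60 through 7.08 to 8.07 in high-oleic animals. Its highest value was in high-oleic animal 8, and the groups overlapped.

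EGR1, a zinc finger factor induced by growth factors, was measured by 2 probe sets. The brighter had a lowest, median and highest value of 11.79, 12.37 and 12.92 in control animals and 11.24, 12.25 and 12.84 in high-oleic animals. The dimmer stood at 8.10, 8.82 and 9.05 in control animals against 7.07, 8.27 and 8.78 in high-oleic animals. Both placed control animal 4 highest and high-oleic animal 2 lowest. They correlated over the 15 animals with r = 0.766 (permutation p = 0.00079) and rho = 0.721 (permutation p = 0.00321), and with r = 0.782 without the 2 animals most distant from the median. Adjusted over the 4 genes with a pair of probe sets, these p-values were 0.00079 and 0.00321.

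ATF3, a stress-induced factor of the ATF and CREB family, ran from 8.10 through 8.78 to 10.42 in control animals. On the high-oleic diet it ran from 8.28 through 8.88 to 9.58. Control animals 7, 1 and 6 were the 3 highest of all, at 10.42, 10.12 and 9.77, while the other 4 control animals lay between 8.10 and 8.78. MYC, a growth-promoting factor, was among the steadiest members, with an SD of 0.37. It ran from 8.95 through 9.58 to 9.84 in control animals and from 8.57 through 9.21 to 9.70 in high-oleic animals, and the groups overlapped.

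KLF11, a Krüppel-like factor also known as an early gene induced by transforming growth factor beta, was low in one animal of each diet. The brighter probe set was 5.09 in control animal 5, with 5.51 for high-oleic animal 2, and at least 6.42 in the other 13. Its highest value, 7.98, was in high-oleic animal 8. The median was 6.94 in control animals and 7.13 in high-oleic animals. The dimmer probe set followed it (r = 0.946, permutation p = 1e-05, the smallest the permutations can give, and 1.3e-05 adjusted over 4 genes) and had the same 2 low animals, at 4.40 and 4.74.

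**Figure D1:**
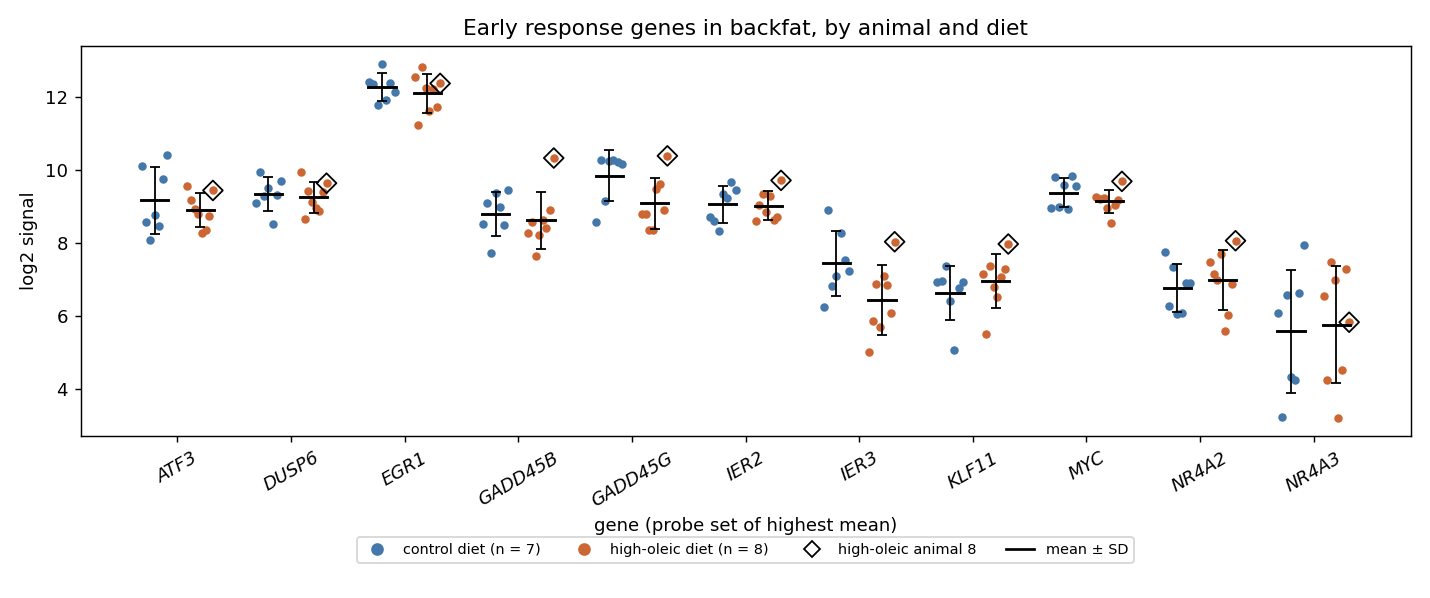
Log2 signal (vertical axis) of the 11 early response genes (horizontal axis) in 7 control and 8 high-oleic animals, 1 point per animal, with the mean and SD of each diet as black bars and high-oleic animal 8 in a diamond. The diets overlap for each gene, NR4A3 spans the widest range, and high-oleic animal 8 is the highest point of GADD45B, GADD45G, IER2, KLF11 and NR4A2.

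The 5 early response genes that act on growth arrest, survival and signalling had lower medians and means in high-oleic animals, and the diets overlapped for each. Of all 11 early response genes 8 had a lower mean on that diet and 3 a higher one. Over all probe sets 53.2% had a lower mean on that diet. GADD45G, a growth arrest and DNA damage protein that activates stress kinases, ran from 8.58 through 10.23 to 10.30 in control animals. On the high-oleic diet it ran from 8.37 through 8.85 to 10.40. In 5 control animals and high-oleic animal 8 it was at least 10.17, and in the other 9 animals, control animals 1 and 3 among them, it was at most 9.64. IER3, which modulates survival signalling, stood at 6.27, 7.24 and 8.91 in control animals and at 5.04, 6.48 and 8.04 in high-oleic animals. Control animals 2 and 5 were the highest, at 8.91 and 8.29, followed by high-oleic animal 8 at 8.04, and the groups overlapped.

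GADD45B, a relative of GADD45G, had medians of 8.99 in control and 8.50 in high-oleic animals on its brighter probe set. This probe set was 10.34 in high-oleic animal 8, against 7.67 to 8.93 in the other high-oleic animals and 7.74 to 9.45 in the control animals. The dimmer probe set followed it closely (r = 0.974, permutation p = 1e-05, adjusted over 4 genes 1.3e-05). IER2, a nuclear early response protein, stood at 8.35, 9.25 and 9.70 in control animals and at 8.62, 8.96 and 9.73 in high-oleic animals. DUSP6, the phosphatase that switches off ERK kinases, stood at 8.52, 9.32 and 9.96 in control animals and at 8.65, 9.28 and 9.96 in high-oleic animals. Neither set the diets apart, with mean differences of -0.03 and -0.09 that changed sign when certain single animals were left out.

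HSP70.2, whose synonyms HSPA1A and HSPA1B name the near-identical inducible copies, cannot be assigned to a single copy. Its brighter probe set had a lowest, median and highest value of 10.29, 11.37 and 12.03 in control animals and of 10.78, 11.32 and 12.48 in high-oleic animals. High-oleic animal 2 was highest on both probe sets, at 12.48 and 11.98, and control animal 4 followed on the brighter at 12.03. Control animal 1, the other animal with a high interferon score, was among the low ones at 10.55. The probe sets correlated with r = 0.935 (permutation p = 1e-05, adjusted over 4 genes 1.3e-05).

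HSPA2, an HSP70 relative best known from the testis, varied most of the heat shock genes, with an SD of 1.19. It was 12.28 in control animal 4, 11.72 in high-oleic animal 4 and 11.45 in control animal 3, and at most 10.33 in the other 12 animals. Its median was 9.66 in control animals and 9.51 in high-oleic animals. HSPA13, a microsomal HSP70 relative, stood at 5.12, 5.65 and 6.54 in control animals and at 4.57, 5.69 and 6.62 in high-oleic animals. HSPA12A, a distant relative, stood at 8.10, 8.61 and 9.88 in control animals and at 8.35, 8.67 and 9.31 in high-oleic animals. The diets overlapped for each of these 3 genes.

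HSP90AA1, the inducible cytosolic HSP90, was measured by 1 probe set. It stood at 4.88, 5.51 and 6.35 in control animals and at 5.16, 5.74 and 7.14 in high-oleic animals. The highest value, 7.14, was in high-oleic animal 8, and no other animal exceeded 6.35.

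The J-domain partners of HSP70 shared a low value in high-oleic animal 8. DNAJB14, of the endoplasmic reticulum membrane, was 6.17 in this animal and at least 7.32 in the other 14. DNAJB4, a cytosolic partner, was 10.43 there and at least 11.07 elsewhere. DNAJA1, also cytosolic, was 10.27 there and at least 10.70 elsewhere, and DNAJC6, the clathrin-uncoating protein auxilin, was 6.08 there and at least 6.49 elsewhere. The other heat shock member lowest in this animal was HSPA13, at 4.57.

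On the control diet, DNAJA1 had a median of 11.17, DNAJB14 of 7.60, DNAJB4 of 11.85 and DNAJC6 of 6.66. On the high-oleic diet the medians were 10.82, 7.53, 11.61 and 7.03 in the same order. The ranges of the diets overlapped for all 4 genes.

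Among the genes with HSPB symbols, HSPB8 and HSPB11 were highest in animals that also stood apart in other gene groups. HSPB8, a partner of the autophagy cochaperone BAG3, was the dimmest member, with a mean of 4.16, and the only one with a mean under 5. It was highest in control animal 1, at 6.0, and then in control animal 6, at 4.95. In the other 13 animals it was at most 4.66, and its widest gap set control animal 1 apart alone. Control animals 1 and 6 had the highest smooth muscle scores, and control animal 1 also had the highest interferon score. The summed log2 signal of the smooth muscle list was 68.6 to 85.2 in control animals and 67.2 to 73.9 in high-oleic animals. Its lowest marker value was 4.11, for DES, where the lowest deposited value of any probe set was 1.49. The part of this list in the result was not tested.

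HSPB11, which despite its name is a subunit of the intraflagellar transport complex of cilia, was 8.54 in high-oleic animal 2 and 8.14 in control animal 1. In the other 13 animals it was at most 7.59. These are the animals with the highest interferon scores, whose summed log2 signal over 14 genes was 105 to 159 in control animals and 109 to 155 in high-oleic animals, with no marker at 0, and its part in the result was not tested. HSPB6, a small heat shock protein abundant in muscle, varied little, from 9.09 through 9.70 to 10.04 in control animals and from 9.17 through 9.91 to 10.48 in high-oleic animals.

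**Figure D2:**
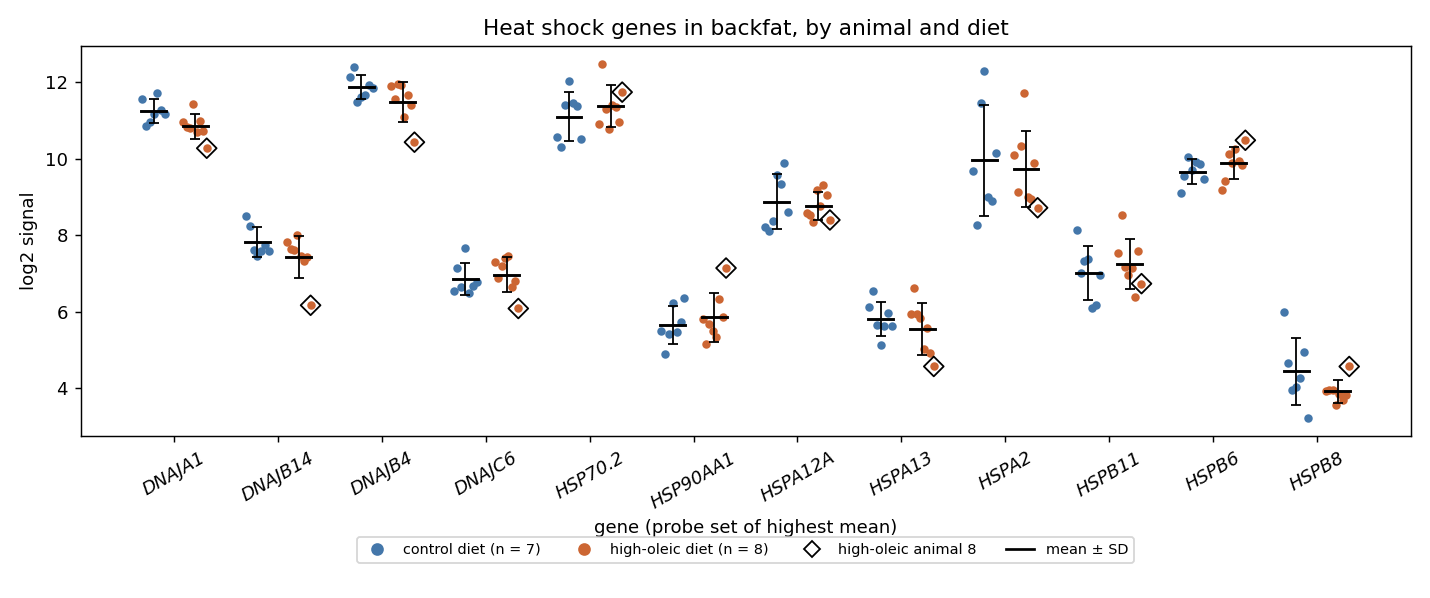
Log2 signal (vertical axis) of the 12 heat shock genes (horizontal axis) in 7 control and 8 high-oleic animals, drawn as for the early response genes. High-oleic animal 8 is the lowest point of DNAJA1, DNAJB14, DNAJB4, DNAJC6 and HSPA13 and the highest of HSP90AA1 and HSPB6, and HSPA2 has 3 animals above 11.

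The comparison of diets asks whether oleic acid supplementation goes with a change in these genes. In limma, 0 of the 27 member probe sets had an adjusted p under 0.05, as did 0% of all 3255, and each member's adjusted p was 0.999. At an unadjusted p under 0.05 there were 3 members, all lower in high-oleic animals, and none higher. Over all probe sets 1.9% were lower and 2.03% higher at that threshold, or 128 in all. The exact permutation test over all splits of the animals into 7 and 8 also gave 0 members after adjustment, and 2 before it, the dimmer EGR1 probe set and DNAJA1. No member had diets that did not overlap, a state reached by 0.0307% of all probe sets.

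The 3 members were IER3, GADD45G and the dimmer probe set of EGR1. IER3 was 6.45 ± 0.95 (SD, n = 8) in high-oleic animals and 7.45 ± 0.89 (SD, n = 7) in control animals. The difference was -1.003 (SE 0.42; unadjusted limma p = 0.0266, exact permutation p = 0.0553). GADD45G was 9.10 ± 0.70 in high-oleic animals against 9.85 ± 0.69 (difference -0.76, SE 0.34; unadjusted limma p = 0.0357, exact permutation p = 0.0572). The dimmer EGR1 probe set differed by -0.59 (SE 0.27; unadjusted limma p = 0.0429, exact permutation p = 0.0418), while the brighter differed by -0.17 (95% interval -0.72 to 0.37). IER3 and GADD45G were also correlated between animals, with r = 0.81.

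The number of such members changed with the animals in the fit. Without control animal 2, none of the 27 members had an unadjusted limma p under 0.05, and IER3 differed by -0.76. Without control animals 4, 5 or 6 or high-oleic animals 1 or 7, each left out alone, 1 remained under that value. With live weight in the fit, IER3 differed by -0.68 and GADD45G by -0.59, and neither had an unadjusted p under 0.05, while the dimmer EGR1 probe set differed by -0.76 and stayed under it. Weight and diet overlapped in this series, at 117 ± 7.32 kg (SD, n = 7) in control animals and 109 ± 3.52 kg (SD, n = 8) in high-oleic animals.

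In the other direction the smallest p-values belonged to KLF11, HSP70.2 and HSPB6. KLF11 was higher in high-oleic animals by 0.59 on its dimmer probe set (SE 0.42, 95% interval -0.29 to 1.46) and by 0.32 on its brighter (SE 0.35, 95% interval -0.41 to 1.06). Without control animal 5 these were 0.33 and 0.06. With live weight in the fit the brighter probe set was -0.25. HSP70.2 was higher by 0.34 (SE 0.31) and 0.28 (SE 0.30) on its 2 probe sets, and by 0.12 on each without high-oleic animal 2. HSPB6 was higher by 0.23 (SE 0.24, 95% interval -0.27 to 0.72).

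Of the 11 early response genes, taken on the probe set of highest mean, 8 had a lower mean in high-oleic animals and 3 a higher one, with a median difference of -0.17. Of the 12 heat shock genes 7 were lower and 5 higher, with a median of -0.16. Over all probe sets 53.2% were lower and the median was -0.03. Among the heat shock genes DNAJA1, DNAJB14 and DNAJB4 differed by -0.40 (SE 0.22), -0.39 (SE 0.27) and -0.38, and HSPB8 by -0.52 (SE 0.32), with 95% intervals that include 0. Without high-oleic animal 8 the DNAJB14 and DNAJB4 differences were -0.20 and -0.23, and without control animal 1 that of HSPB8 was -0.26.

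For 19 of the 27 member probe sets, or 70.4%, the 95% interval lay within 2-fold in either direction, as for 74.4% of all. The intervals of NR4A3 (-1.26 to 1.63) and HSPA2 (-1.34 to 0.90) were the widest, with differences of 0.19 (SE 0.69) and -0.22 (SE 0.54). NR4A2 differed by 0.22 (SE 0.36), HSPB11 by 0.24 (SE 0.33) and HSPA13 by -0.26 (SE 0.30). MYC differed by -0.24 (SE 0.23, 95% interval -0.73 to 0.24), ATF3 by -0.25 (SE 0.34, 95% interval -0.97 to 0.46), DUSP6 by -0.09 (95% interval -0.62 to 0.45) and HSP90AA1 by 0.19 (SE 0.30, 95% interval -0.42 to 0.81). A difference of 1 log2 unit therefore lay outside the intervals of MYC, ATF3, DUSP6 and HSP90AA1.

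**Figure D3:**
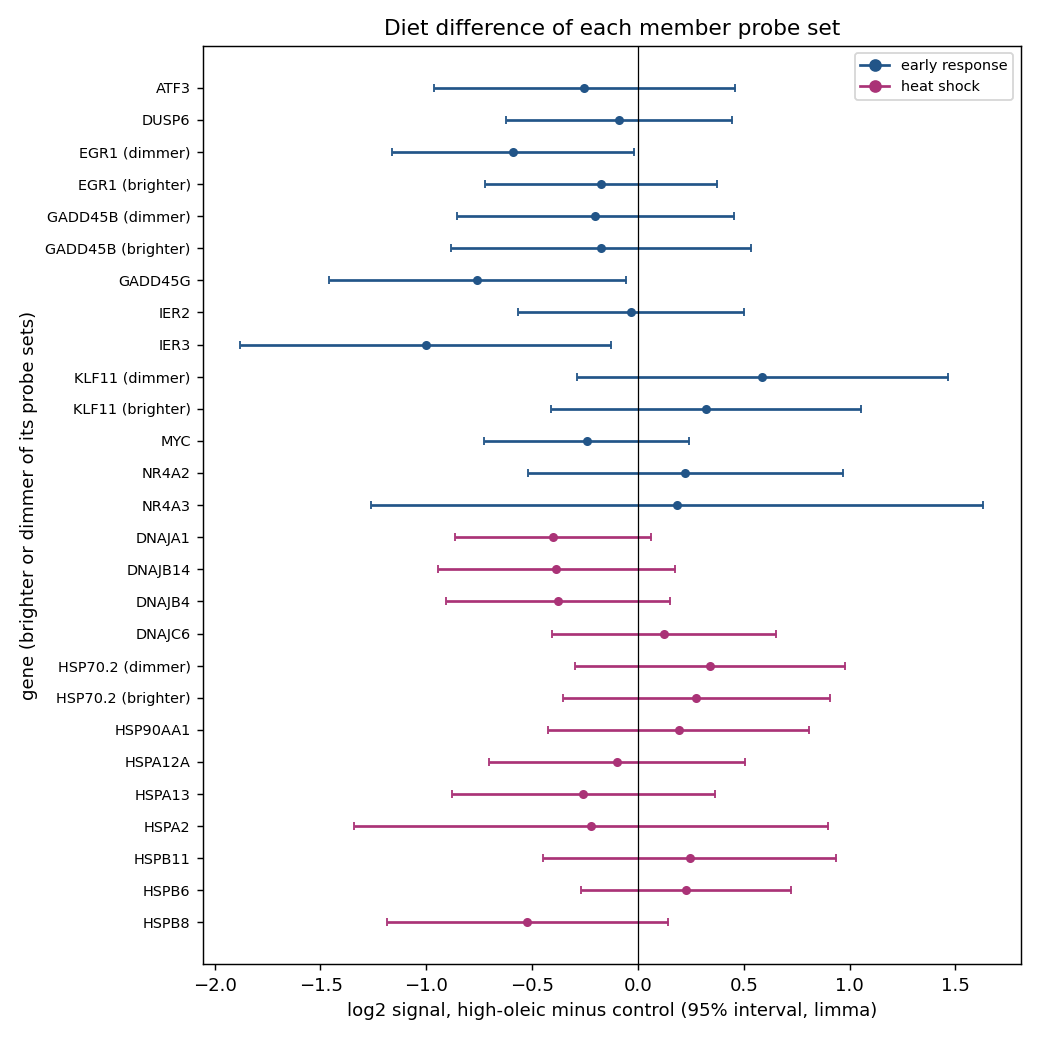
Difference in log2 signal, high-oleic minus control, of the 27 member probe sets (horizontal axis) with its 95% interval from limma, early response genes in blue and heat shock genes in purple. IER3, GADD45G and the dimmer EGR1 probe set are the only members whose interval excludes 0, and none passed after adjustment.

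Co-variation over the animals was described for pairs of early response genes, pairs of heat shock genes and pairs with a gene of each group. Over the 55 pairs of early response genes the median Pearson r across 15 animals was 0.26, and 43 pairs, or 78.2%, were positive. Over the 66 pairs of heat shock genes the median was 0.07 and 36 were positive. Over the 132 pairs with 1 gene of each group the median was -0.05 and 59 were positive. Over all pairs of the 1260 named genes the median was 0.04 and 53.7% were positive. These medians are descriptions, since pairs share animals and genes.

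An absolute r of 0.7 or more was reached by 4.55% of all pairs of named genes. It was reached by 2 of 55 early response pairs, 5 of 66 heat shock pairs and 0 of 132 pairs between the groups. After Benjamini-Hochberg adjustment of the permutation p-values over all 253 pairs, 1 pair of early response genes and 2 of heat shock genes passed 0.05. Before adjustment there were 29 such pairs, 6 of them between the groups. Without high-oleic animal 8 no pair passed, without control animal 2 or high-oleic animal 7 only DNAJB14 with DNAJB4 did, and without control animal 1 there were 5.

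The pair of early response genes was GADD45G with IER3. Their correlation was r = 0.806 (permutation p = 2.0e-04, adjusted 0.0253) and rho = 0.854 (permutation p = 1.1e-04, adjusted 0.0139). It was 0.854 without the 2 animals most distant from the median and 0.784 without high-oleic animal 8. Within diets r was 0.739 among the 7 control animals (exact permutation p = 0.05) and 0.741 among the 8 high-oleic animals (exact permutation p = 0.0329). A correlation this large in size was found in 1.23% of all pairs of named genes. The relation had the same direction within each diet, as the scatter of the 2 genes shows.

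GADD45B and GADD45G followed with r = 0.709 (permutation p = 0.0016, adjusted 0.0810) and rho = 0.736 (permutation p = 0.00233, adjusted 0.118). DUSP6 and MYC had r = 0.638 (permutation p = 0.011, adjusted 0.220) and rho = 0.739 (permutation p = 0.00233, adjusted 0.118). DUSP6 and KLF11 had r = 0.676 (permutation p = 0.00451, adjusted 0.127) but rho = 0.486 (permutation p = 0.0690, adjusted 0.564). Without control animal 5 and high-oleic animal 2, where KLF11 is lowest, the r of DUSP6 and KLF11 was 0.263, so that relation rests on these animals.

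In the heat shock group, the J-domain genes DNAJB14 and DNAJB4 and the microsomal HSPA13 varied together. DNAJB14 and DNAJB4 had r = 0.893 (permutation p = 4.0e-05, adjusted 0.0101) and rho = 0.789 (permutation p = 6.5e-04, adjusted 0.0548). Without control animal 1 and high-oleic animal 8 r was 0.767. Within diets it was 0.831 (exact permutation p = 0.0206, 7 control animals) and 0.891 (exact permutation p = 0.00781, 8 high-oleic animals). DNAJB4 and HSPA13 had r = 0.786 (permutation p = 3.3e-04, adjusted 0.0278) and rho = 0.711 (permutation p = 0.00416, adjusted 0.164). Without control animal 2 and high-oleic animal 8 the latter r was 0.591. DNAJB14 and HSPA13 had r = 0.740 (permutation p = 0.00109, adjusted 0.0689), and their rho of 0.886 (permutation p = 2.0e-05, adjusted 0.00506) passed.

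Negative correlations with genes of this set were also seen in the heat shock group, and none of them passed the adjusted test. DNAJB14 and HSP90AA1 had r = -0.761 (permutation p = 0.0023, adjusted 0.0831) and rho = -0.554 (permutation p = 0.0348, adjusted 0.505). Without high-oleic animal 8, the highest in HSP90AA1 and the lowest in DNAJB14, their r was -0.503. That animal also had the highest spiked signal, and after a linear fit on the spiked signal was taken out no pair of the 253 passed. Quantile normalization of the arrays likewise left no pair, and taking out the diet means left DNAJB14 with DNAJB4 alone.

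Between the groups, the largest correlations were those of HSPB11, placed in the heat shock group by its symbol, with GADD45G and IER3. They were r = -0.601 (permutation p = 0.0181, adjusted 0.286) and r = -0.591 (permutation p = 0.0193, adjusted 0.288), and rho was -0.593 (permutation p = 0.0227, adjusted 0.495) and -0.657 (permutation p = 0.00937, adjusted 0.296). Without the 2 animals most distant in the first gene of each pair they were -0.763 and -0.709, and both were negative within each diet. GADD45B and HSP90AA1 had r = 0.579 (permutation p = 0.0255, adjusted 0.359) and rho = 0.282 (permutation p = 0.307, adjusted 0.714), and r = 0.241 without high-oleic animal 8. KLF11 and DNAJA1 had r = -0.552 (permutation p = 0.0343, adjusted 0.378) and rho = -0.489 (permutation p = 0.0675, adjusted 0.564). None of the 132 pairs between the groups passed the adjusted test.

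**Figure D4:**
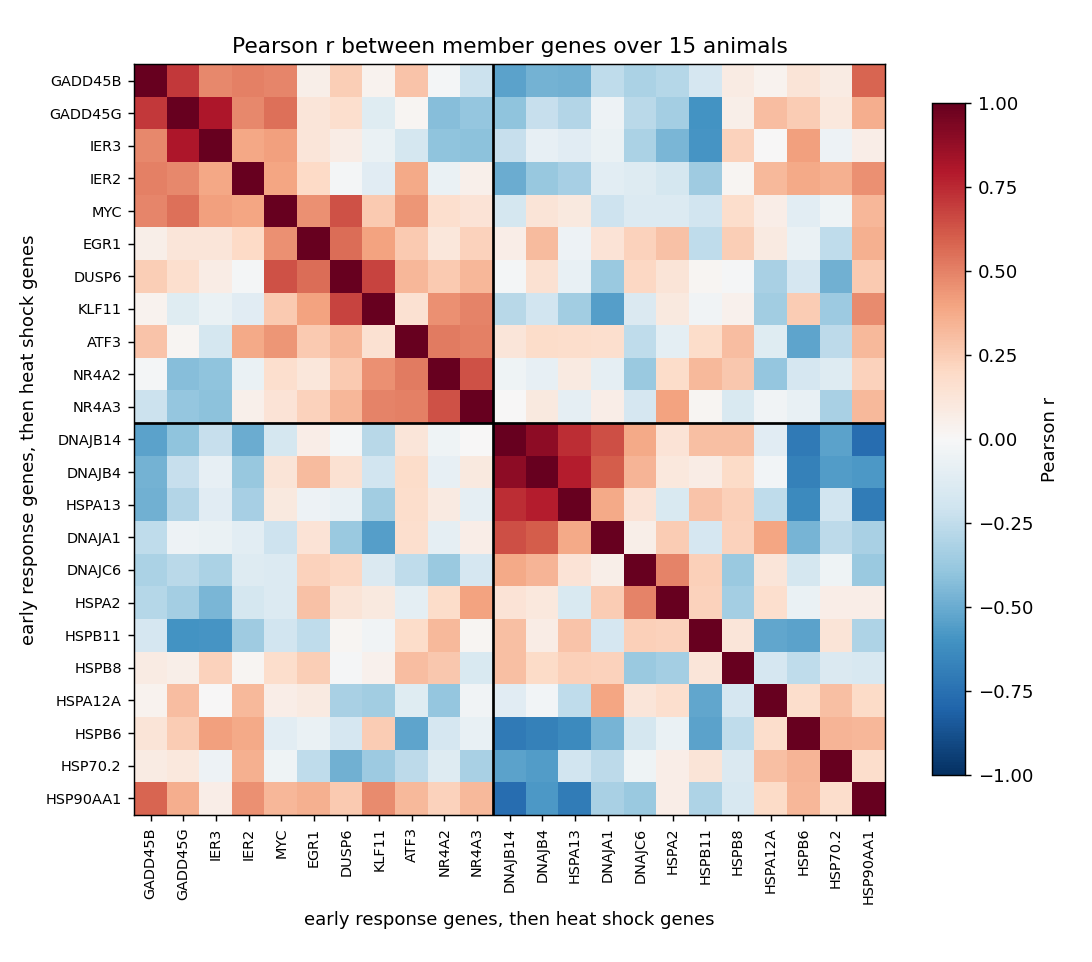
Pearson r over 15 animals between the 11 early response genes and the 12 heat shock genes (both axes, in the same order, lines between the groups), from blue at -1 to red at 1. Most squares within the early response group are red, but NR4A2 and NR4A3 are blue against GADD45G and IER3, with r from -0.42 to -0.38. Red squares also stand among DNAJB14, DNAJB4, HSPA13 and DNAJA1, while HSPB6 and HSP90AA1 are blue against these. No negative pair within the heat shock group passed the adjusted test. Between the groups r runs from -0.60 to 0.58.

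A group mean is the average over its genes of the log2 signal minus the gene's mean over the 15 arrays. The early response mean ran from -0.55 in high-oleic animal 5 to 0.75 in high-oleic animal 8, with control animal 7 next at 0.60. The heat shock mean ran from -0.36 in high-oleic animal 8 to 0.38 in control animal 4. High-oleic animal 8 was thus the highest of one group and the lowest of the other. In the 4 measured chaperone and unfolded protein response genes outside the rule, CANX, CRYAB, DDIT3 and FKBP5, the same animal was instead the highest of all, with a score of 0.57. High-oleic animals 7 and 2 followed closely, at 0.48 and 0.46. CANX was dim, with means of 3.31 in control and 3.63 in high-oleic animals. High-oleic animal 8 also had the highest macrophage score, 1.16 over 5 of 10 listed genes. The summed log2 signal of that list was 42.9 to 46.0 in control and 38.6 to 50.01 in high-oleic animals. Its part in the group means was not tested. The correlation of the 2 means was -0.23 over 15 animals and 0.10 without high-oleic animal 8.

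By diet, the early response mean was -0.08 ± 0.42 (SD, n = 8) in high-oleic animals and 0.10 ± 0.31 (SD, n = 7) in control animals. The heat shock mean was -0.05 ± 0.18 in high-oleic animals and 0.05 ± 0.19 in control animals. The differences of -0.18 and -0.10 were smaller than the spread between animals of 1 diet. The early response difference was -0.30 without high-oleic animal 8 and -0.097 without control animal 7, and that of heat shock genes was -0.046 if control animal 4 was left out and -0.056 if high-oleic animal 8 was.

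High-oleic animal 8 was the highest or lowest of the 15 animals in 14 of 27 member probe sets, or 51.9%, against 49.9% of all probe sets. It was highest in 7 of the 14 early response probe sets and lowest in none, and lowest in 5 and highest in 2 of the 13 heat shock probe sets. Over all probe sets it was highest in 26.85% and lowest in 23.04%. The 7 include both probe sets of GADD45B and both of KLF11. With directions and groups pooled, the share of members at an extreme in this animal was close to that of the whole table. The split of directions between the groups was not tested. Control animal 2 followed with 8 members, 2 early response genes highest and 5 heat shock probe sets lowest and 1 highest, which is 29.6% of members against 12.7% of all probe sets. Its skeletal muscle score was the highest. The summed log2 signal over the 9 genes of that score was 25.3 to 76.6 among control and 28.9 to 73.2 among high-oleic animals. The dimmest of them was TNNT3, with a mean of 3.43. The part of the score in this count was not tested. High-oleic animal 2 had 6 members at an extreme, or 22.2% against 18.5% of all probe sets, with 4 heat shock probe sets highest and 2 early response probe sets lowest, the latter being both of EGR1.

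**Figure D5:**
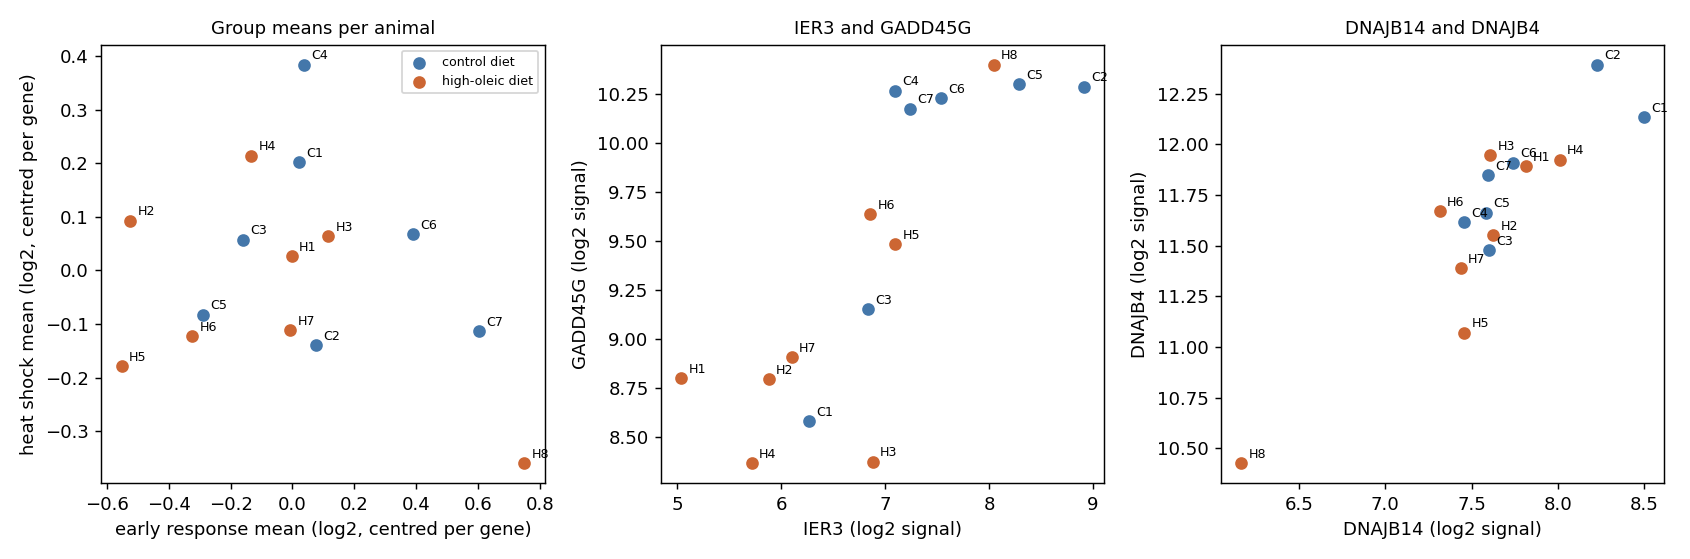
Left, early response mean (horizontal axis) against heat shock mean (vertical axis) per animal, on the log2 scale; middle, IER3 against GADD45G; right, DNAJB14 against DNAJB4, as log2 signals, with control animals in blue (C) and high-oleic animals in orange (H). High-oleic animal 8 lies at 0.75 and -0.36 in the left panel, away from the rest, while GADD45G rises with IER3 in both diets.

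Other early response genes, from a list of 46, were examined beside the members. Of these 15 were measured and none passed the test in limma, with 10 lower and 5 higher in high-oleic animals and a median of -0.22. At an unadjusted p under 0.05 there was 1 in each direction. PTGS2, the inducible cyclooxygenase, was 5.60 ± 0.29 (SD, n = 8) in high-oleic animals and 6.502 ± 0.645 (SD, n = 7) in control animals. ID1, an inhibitor of helix-loop-helix factors, was 8.77 ± 0.98 and 7.95 ± 0.66, a difference of 0.82. Of 39 other chaperone and unfolded protein response genes 4 were measured, CANX, CRYAB, DDIT3 and FKBP5, and none reached an unadjusted p under 0.05. The 3 that varied most were CANX, a chaperone of the endoplasmic reticulum, DDIT3, a stress-induced factor, and CRYAB, a small heat shock protein, higher by 0.32, 0.42 and 0.30 in high-oleic animals, with standard errors of 0.34, 0.29 and 0.28. FKBP5, a steroid receptor cochaperone, differed by -0.07.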

How the data were processed

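The authors deposited 1 table of log2 signals per probe set for 15 arrays, 1 per animal. GCOS and GCRMA were named, per the submitters' processing notes, with roles and versions not given in the sources used here. Deposited values ran from 1.49 to 14.36, from which the log2 scale was read. The table held 3272 probe sets, and 17 manufacturer controls were left out. Symbols came from a platform annotation table: 1455 probe sets had 1, 27 several and 1773 none.

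Diets were compared, high-oleic minus control, by lmFit and eBayes of limma (version 3.58.1, R 4.3.3), with Benjamini-Hochberg adjustment over all 3255 probe sets and a threshold of 0.05. Tests were two-sided. Correlations used the probe set of highest mean per gene and 100000 permutations, or all orders within a diet. On simulated data with 200 of 3255 probe sets changed, limma recovered 49% of differences of 1 log2 unit and 93% of 2, with 8 false calls among 150.

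The members and lists were chosen with earlier results of these data known. Full values went to the 6 most variable genes of each group, the 3 smallest p-values per direction and a set of well-known members, and all 23 genes are named. Pairs named are the 4 of largest absolute r within and between groups. Alternatives were quantile normalization, median centring, a filter at a mean of 5, live weight, a block on animal number, trended and robust variance, array weights, an exact test, rank correlation, diet-centred values, every probe set, classical early genes alone and leaving out each animal. Added after the data were seen were a fit with the spiked signal, a fit without both animals of high interferon score, and pair correlations without single animals or the spiked signal. Promoter sequences were not used here. Figures were drawn with matplotlib 3.10.9.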

Additional observations from a re-analysis of the deposited data

Results flagged for a closer look

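Within each diet, each member probe set was checked for a single value set apart from the rest, and the 54 checks gave 5. On the control diet this was 1 of 27 probe sets, or 3.70%, against 13.1% of all probe sets. On the high-oleic diet it was 4 of 27, or 14.8%, the same as the 14.8% of all. The cutoffs are made to flag about 1 in 20 checks of normally distributed values, a share that all probe sets exceeded on both diets.

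KLF11 was 5.09 in control animal 5 on its brighter probe set, below 6.42 to 7.39 in the other control animals. The other 4 values all lay in high-oleic animal 8. GADD45B was 9.41 and 10.34 on its probe sets, above a highest other value of 7.90 and 8.93 on that diet. DNAJB14 was 6.17, below 7.32 to 8.01 in the others, and HSPB8, the dimmest member, was 4.57, above 3.57 to 3.96. This animal also had the highest spiked signal, at 7.29, and its part in these values was not tested.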

How the results depend on the processing

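No member passed the adjusted limma or exact test under any of the 9 alternatives, the 15 fits without 1 animal or the 2 added fits. Over all probe sets the count stayed 0, except 1 with the spiked signal as a covariate. The count at an unadjusted p under 0.05 was 128, or 197 with array weights and 194 with the animal number as a replicate block. The correlation of deviations between animals of equal number ran from -0.16 to 0.30, and was over 0.1 in 4 of 7 pairs. Nothing says that equal numbers belong together, so the block tests no known pairing. High-oleic animal 8 has no control partner and gives no information in the block fit, so its differences equal those without that animal: IER3 -1.23, GADD45G -0.94, and group means -0.30 for early response and -0.056 for heat shock. Under 0.05 were 5 members with the block and 3 without that animal and no block.

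Of 27 member differences 18 kept their sign throughout. With live weight in the fit the sign turned for IER2 (0.13), the brighter KLF11 (-0.25), NR4A2 (-0.21), HSPA12A (0.31) and HSPB11 (-0.19). HSPA2 turned with array weights (0.057) and the spiked signal (0.016), and HSP90AA1 with the latter (-0.031). Without single animals DUSP6 ranged from -0.23 to 0.014, IER2 from -0.15 to 0.070, NR4A3 from -0.20 to 0.58, HSPA12A from -0.23 to 0.069 and HSPA2 from -0.51 to 0.16.

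Median r without single animals ran from 0.19 to 0.33 within early response genes, from -0.015 to 0.11 within heat shock genes and from -0.076 to 0.044 between them. The 3 pair calls became 0 to 5 without single animals, 1 with diet means taken out, 0 with quantile normalization and 0 with the spiked signal taken out. The group mean differences ran from -0.30 to -0.097 and from -0.14 to -0.046. The 5 outlying values were 3 after quantile normalization. The cause of these shifts was not tested, and the number of arrays limits precision.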

Other observations

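The most variable member of each group was set against the other 1259 named genes over the 15 animals. For NR4A3 the 4 largest correlations were with GEM, a small GTPase (r = 0.83), LRRN3 (r = 0.78), ID3, an inhibitor of helix-loop-helix factors (r = 0.73), and the protease ADAMTS1 (r = 0.71). Without high-oleic animal 8 these were 0.84, 0.81, 0.79 and 0.74. For HSPA2 they were with the glutamate transporter SLC1A1 (r = 0.86), RASSF2 (r = 0.81), CFAP20 (r = 0.69) and RIDA (r = 0.69). Without high-oleic animal 8 these were 0.85, 0.82, 0.68 and 0.66. The genes were picked as the largest of 1259 values, so the sizes carry no test.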
